A study of Mus musculus with 84 samples.

Results

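The genes described here are the xenobiotic receptors PXR (Nr1i2) and CAR (Nr1i3) with 8 cytochrome P450 genes of the Cyp2b and Cyp3a families: Cyp2b9, Cyp2b10, Cyp2b13, Cyp3a11, Cyp3a13, Cyp3a16, Cyp3a25 and Cyp3a59. They were taken by name, as the rows of the count files whose gene IDs the authors' table pairs with these symbols. All 10 genes were found among 37310 gene IDs, and all 10 were among the 16195 genes with enough reads to test.

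The study asked how the liver of pregnant mice of 14 strains responds to TCDD (2,3,7,8-tetrachlorodibenzo-p-dioxin), a persistent pollutant that binds the aryl hydrocarbon receptor. Females with a vaginal plug were assigned at random to TCDD or to vehicle, were 6 to 8 weeks old at the start, and entered the study if they proved pregnant. In each strain 3 liver libraries came from mice given TCDD at 0.1 µg/kg/day by mouth in peanut butter for 10 days, and 3 came from mice given peanut butter alone, which makes 84 RNA-seq libraries in 28 groups. The strains, as labelled, were NZO/HILTJ, FVB/NJ, A/J, C57BL6/J, DBA1/J, NOD/SHILTJ, CBA/J, 129S1/SVIMJ, C3HeB/FeJ and BALB/CJ, the BXD lines BXD-40/TyJ, BXD91/2RwwJ and BXD100/RwwJ, and CC019/TauUnc. BXD lines are recombinant inbred strains descended from C57BL/6J and DBA/2J, and CC019 is a Collaborative Cross line. All groups share pregnancy, so no library shows the liver of a mouse that was not pregnant. The labels give each library a code of its own and do not say outright that each is a separate mouse, so the p-values below measure the spread between these libraries.

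CAR and PXR are nuclear receptors that sense drugs, bile acids and other small molecules in hepatocytes and bind DNA as dimers with the retinoid X receptor. Cyp2b10 is the textbook CAR target in mouse liver and Cyp3a11 the textbook PXR target, and both encode enzymes that oxidise drugs and steroids. Cyp2b9 and Cyp2b13 are known in mice as genes with higher expression in female liver, and Cyp3a16 belongs to a group of Cyp3a genes with the same sex bias.

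Promoter sequences are shown because several of these genes lie in tandem, resemble each other closely and vary together among the libraries of a group. The stretches of 300 bases, 250 before and 50 after the start site, come from RefSeq on build GRCm38.p6 and not from the mm9 build of the counts. They are shown for the Cyp2b genes and for the 3 Cyp3a genes whose levels in A/J and CC019/TauUnc are described below. All 10 genes matched an entry. Capitals mark GCGTG (or CACGC, its complement), the core of the element bound by the aryl hydrocarbon receptor, and the nuclear receptor half-sites AGGTCA and AGTTCA (or TGACCT and TGAACT).
Cyp2b10: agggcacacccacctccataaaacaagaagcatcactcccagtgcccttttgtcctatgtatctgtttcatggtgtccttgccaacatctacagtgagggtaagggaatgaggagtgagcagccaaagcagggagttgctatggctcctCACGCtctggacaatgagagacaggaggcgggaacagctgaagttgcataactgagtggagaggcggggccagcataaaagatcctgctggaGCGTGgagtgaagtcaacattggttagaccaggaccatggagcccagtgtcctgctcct
Cyp2b9: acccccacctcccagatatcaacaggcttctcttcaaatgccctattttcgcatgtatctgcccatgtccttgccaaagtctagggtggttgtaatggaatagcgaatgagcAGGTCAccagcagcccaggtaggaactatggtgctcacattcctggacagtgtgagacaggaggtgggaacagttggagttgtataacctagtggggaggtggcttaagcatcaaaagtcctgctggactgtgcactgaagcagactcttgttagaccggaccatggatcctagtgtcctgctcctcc
Cyp2b13: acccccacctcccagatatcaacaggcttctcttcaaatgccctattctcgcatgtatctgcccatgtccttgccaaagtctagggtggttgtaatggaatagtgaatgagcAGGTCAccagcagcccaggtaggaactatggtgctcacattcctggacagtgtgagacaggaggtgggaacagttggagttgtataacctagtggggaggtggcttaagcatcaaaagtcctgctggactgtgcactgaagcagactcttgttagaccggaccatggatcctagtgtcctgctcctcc
Cyp3a11: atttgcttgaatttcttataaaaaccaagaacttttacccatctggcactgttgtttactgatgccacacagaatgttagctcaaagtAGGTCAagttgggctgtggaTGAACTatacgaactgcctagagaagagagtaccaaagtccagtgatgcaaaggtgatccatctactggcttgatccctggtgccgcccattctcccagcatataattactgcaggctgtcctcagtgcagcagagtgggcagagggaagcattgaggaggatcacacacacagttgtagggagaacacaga
Cyp3a25: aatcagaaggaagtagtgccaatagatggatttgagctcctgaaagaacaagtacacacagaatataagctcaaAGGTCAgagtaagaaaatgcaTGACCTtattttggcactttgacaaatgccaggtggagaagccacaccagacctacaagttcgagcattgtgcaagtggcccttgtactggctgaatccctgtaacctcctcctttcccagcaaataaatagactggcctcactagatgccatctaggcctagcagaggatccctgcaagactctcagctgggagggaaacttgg
Cyp3a59: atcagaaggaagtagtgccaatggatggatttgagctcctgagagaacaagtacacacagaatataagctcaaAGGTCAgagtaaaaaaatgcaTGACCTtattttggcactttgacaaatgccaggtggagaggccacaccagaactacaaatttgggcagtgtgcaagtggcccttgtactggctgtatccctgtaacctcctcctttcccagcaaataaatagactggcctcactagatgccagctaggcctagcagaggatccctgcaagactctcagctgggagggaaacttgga

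These stretches lie at chr7:25897408-25897707 (Cyp2b10), chr7:26173159-26173458 (Cyp2b9) and chr7:26061245-26061544 (Cyp2b13), all on the plus strand, and at chr5:145879805-145880104 (Cyp3a11) and chr5:146009569-146009868 (Cyp3a25) on the minus strand and chr5:146079008-146079307 (Cyp3a59) on the plus strand. Cyp2b9 and Cyp2b13 share 298 of 300 bases, and Cyp2b10 is 71.7% identical to either. Cyp3a25 and Cyp3a59 are 95.7% identical. In Cyp2b10 alone of the 10 promoters GCGTG was found, at -9 and, on the other strand, at -101 from the start site, and 32.5% of 27025 mouse promoters of the same length hold this string on either strand. A half-site was found in Cyp2b9, Cyp2b13, Cyp3a11, Cyp3a25 and Cyp3a59, as a pair on opposite strands in the Cyp3a genes (-162 and -142 in Cyp3a11, -176 and -155 in Cyp3a25, -177 and -156 in Cyp3a59). Across all promoters 16% hold AGGTCA, 14.0% AGTTCA and 27.6% at least 1 of them on either strand. A match is a string of letters and no shown binding site. Spliced transcripts of GENCODE M21 were compared on the same strand among the Cyp2b, Cyp3a and Nr1i genes only, and other genes were not searched. The share of 50-base windows that also occur in another of these genes is 28% for Cyp3a59, 26.8% for Cyp3a25 and 20.04% for Cyp2b13. It is 14.8% for Cyp3a11, 10.8% for Cyp2b9, 10.7% for Cyp3a16 and 8.57% for Cyp2b10. No such window was found in Nr1i2, Nr1i3 or Cyp3a13. The division of reads between Cyp3a25 and Cyp3a59, whose transcripts are 97.0% identical, and among the Cyp2b genes is therefore uncertain in the authors' counts.

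Libraries held between 9122406 and 19689624 reads in genes (median 16202909). Levels are given as CPM, the reads of a gene scaled to the same total of gene reads in every library. The summed level of 5 hepatocyte markers was 54793 to 104322 CPM in TCDD libraries and 52959 to 99574 CPM in vehicle libraries, and in bulk liver fewer cells of a type and less RNA per cell cannot be told apart. Replicate 3 of C57BL6/J with TCDD went against its label of sex: Xist was at 0.219 CPM, against 52.0 or more in the other libraries, 4 Y-linked genes summed to 128.5 CPM, and the female-liver list summed to 519 CPM. That library and 2 others, 129S1/SVIMJ TCDD replicate 1 and CC019/TauUnc vehicle replicate 1, had 1.53, 23.6 and 34.8 CPM of A1bg. This gene of female liver was at 2369 CPM or more in the other 81, and is 1 of 12 genes of the female-liver list. Cyp4a14 of that list was above its median of 365 CPM in all 3, at 495, 888 and 424 CPM. Sult3a1 (median 264 CPM) was at 0, 324 and 3.81 CPM, and the rest of the list was below its medians. The 3 libraries are not alike otherwise. A list of 10 male-liver genes summed to 2213 CPM in the first and 1137 CPM in the CC019/TauUnc library, against at most 693 CPM in the other 81. Cyp2d9, the gene of this list with the highest level in any library, was at 906, 111 and 674 CPM (at most 165 CPM in the other 81). Xist was at 273 CPM in the 129S1/SVIMJ library and 345 CPM in the CC019/TauUnc library. A/J vehicle replicate 2 carried skeletal muscle genes (1793 CPM summed over 6 genes), and BXD-40/TyJ vehicle replicate 1 had the most adrenal cortex genes (954 CPM). Results that rest on these libraries are given with and without them. As a check of the treatment labels, Cyp1a2, a direct target of the aryl hydrocarbon receptor, was higher by 2.29 ± 0.12 on the log2 scale on average (SE; edgeR quasi-likelihood test, adjusted p = 9.04e-23) and positive in 14 strains, and Cyp1a1 was higher by 5.08 ± 0.31 (adjusted p = 4.3e-19) and positive in 12.

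In vehicle livers the 10 genes spanned a wide range of levels. Per kilobase of transcript, Cyp3a11 came first with 217.5 CPM per kb, followed by Cyp3a25 (147.3), Cyp2b9 (123), Cyp3a16 (109) and Nr1i3 (95.6). Below these came Cyp3a13 with 56.4 CPM per kb, Nr1i2 (49.8), Cyp2b13 (31.1), Cyp2b10 (18.6) and Cyp3a59 (12.3). Each of these is the mean of 14 strain means over the length of 1 transcript, the longest coding transcript of the gene in GENCODE M21. The order may depend on that choice.

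No member passed the test for an average change with TCDD over the 14 strains (0 of 10, where 0.179% of all genes tested were called). The unadjusted p was below 0.05 for 3 of 10, Nr1i3, Cyp2b13 and Cyp3a13, against 5.94% of all genes. Without 129S1/SVIMJ, the unadjusted edgeR p was 0.000784 for Nr1i3, 0.281 for Cyp2b13 and 0.175 for Cyp3a13. Without C57BL6/J TCDD replicate 3, it was 0.00519, 0.0132 and 0.0632 in the same order. The average difference, TCDD minus vehicle, was positive for 7 of 10, and its median was 0.12 on the log2 scale, beside -0.0033 over all genes tested. DESeq2 called none either.

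The receptors come first. Levels of Nr1i3 are uncertain because another gene overlaps its exons on the opposite strand, as described further below. Nr1i3 ranged from 158.3 to 956 CPM in the 42 TCDD libraries (median 293) and from 148.98 to 458 CPM in the 42 vehicle libraries (median 269). The ranges overlap, but 8 TCDD libraries of 6 strains lie above every vehicle library, the highest of them C3HeB/FeJ TCDD replicate 2. The average log2 difference of Nr1i3 was 0.25 ± 0.08 (SE), with a 95% interval of 0.09 to 0.41, positive in 10 of 14 strains (edgeR adjusted p = 0.423). Nr1i2 ranged from 60.6 to 171.1 CPM with TCDD (median 116) and from 90.2 to 176.1 CPM with vehicle (median 121). Its lowest value is the C57BL6/J library that went against its label of sex. The average log2 difference of Nr1i2 was -0.06 ± 0.05 (edgeR adjusted p = 0.944), positive in 6 strains and negative in 8.

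**Figure D1:**
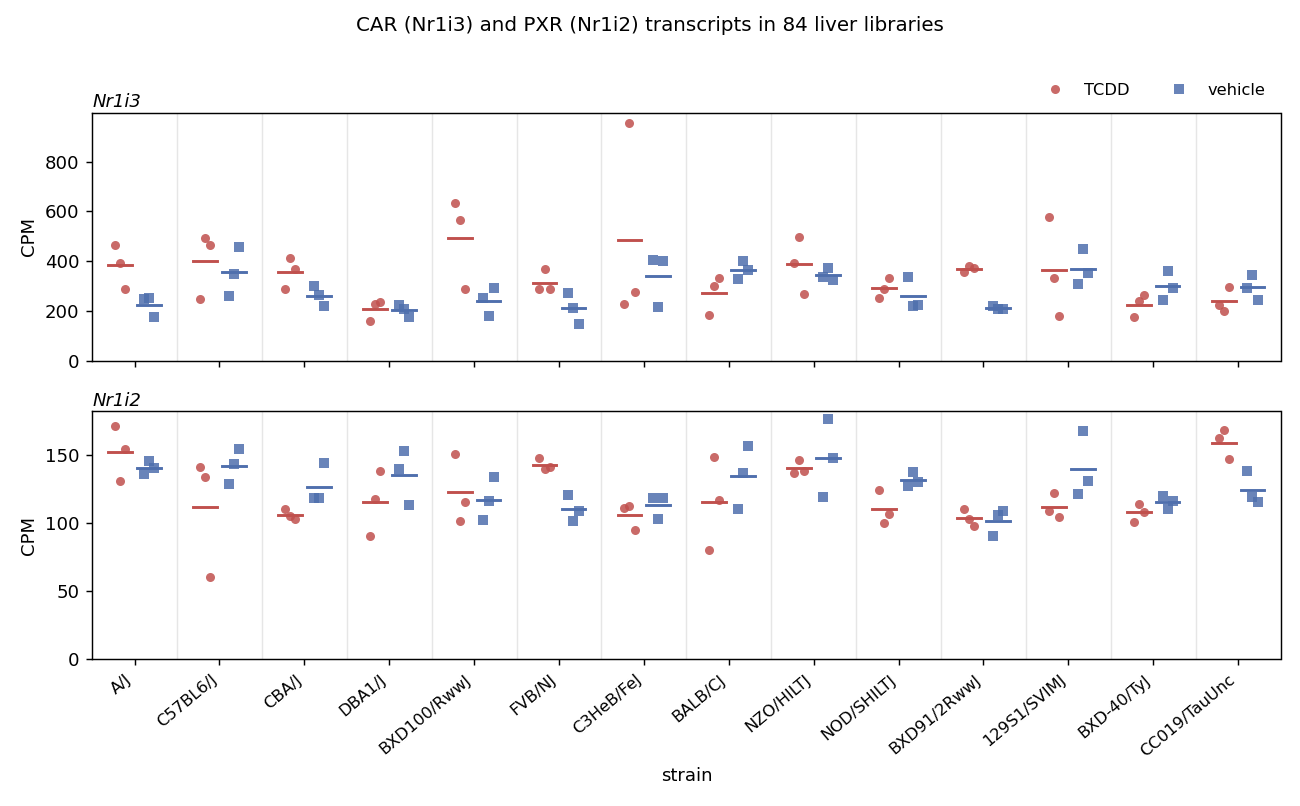
Nr1i2 (PXR) and Nr1i3 (CAR) in each liver library, in CPM, by strain, with TCDD libraries left of vehicle libraries and a bar at each group's mean. Nr1i2 stays between 60.6 and 176.1 CPM in all 84 libraries, while Nr1i3 spans 148.98 to 956 CPM.

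Of the Cyp2b genes, Cyp2b10 ranged from 0.356 to 121 CPM with TCDD (median 42.6) and from 0.128 to 90.1 CPM with vehicle (median 34.5). Its average log2 difference was 0.21 ± 0.19 (95% interval -0.16 to 0.59, 9 of 14 strains positive, edgeR adjusted p = 0.950). The interval includes 0. Cyp2b9 had a median of 248 CPM with TCDD and 245 CPM with vehicle, and an average log2 difference of 0.03 ± 0.10 (edgeR adjusted p = 1.00). Cyp2b13 had a median of 59.4 CPM with TCDD and 53.2 CPM with vehicle, and an average of 0.60 ± 0.29 (edgeR adjusted p = 0.832) that was positive in 7 of 14 strains. That average rests on 129S1/SVIMJ, whose vehicle libraries had no Cyp2b13 read, and without this strain it was 0.20.

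**Figure D2:**
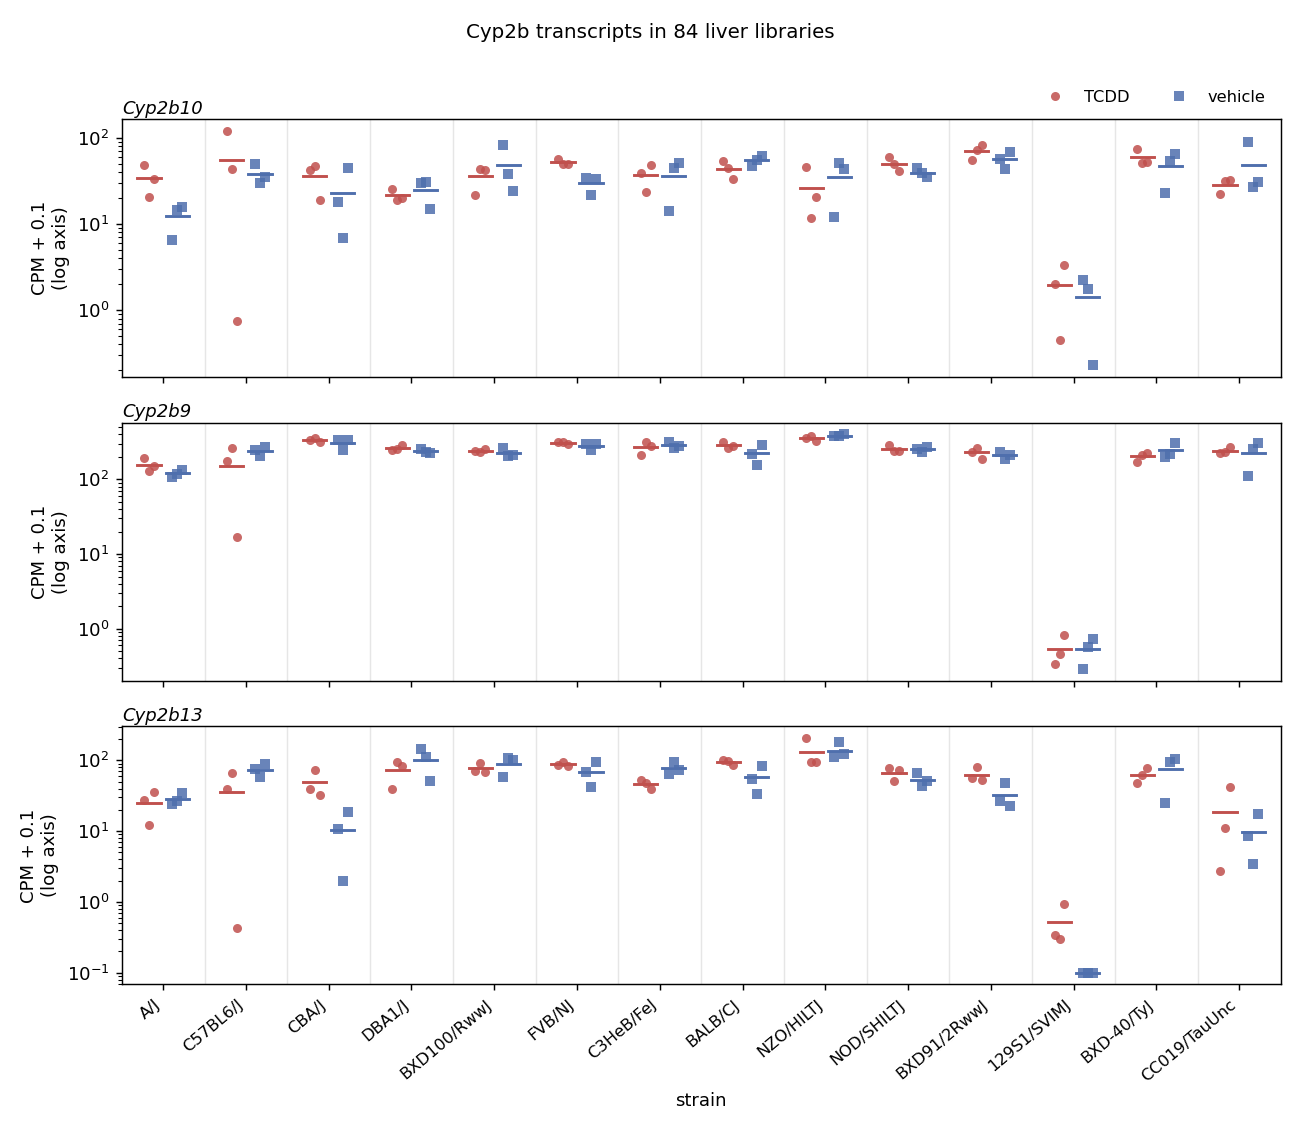
Cyp2b9, Cyp2b10 and Cyp2b13 in each liver library, in CPM on a log axis, by strain, with TCDD libraries left of vehicle libraries and a bar at each group's mean. The 6 libraries of 129S1/SVIMJ lie below every library of the other strains for Cyp2b9, and for Cyp2b10 and Cyp2b13 below all but C57BL6/J TCDD replicate 3, which is low for each gene (16.7, 0.658 and 0.329 CPM).

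Of the Cyp3a genes, Cyp3a11 ranged from 9.83 to 1591 CPM with TCDD (median 447) and from 16.8 to 2991 CPM with vehicle (median 364). Its average log2 difference was 0.36 ± 0.20 (95% interval -0.04 to 0.75, 10 of 14 strains positive, edgeR adjusted p = 0.863). The spread among libraries of 1 group was wide: in BXD-40/TyJ vehicle livers Cyp3a11 was at 16.8, 331 and 269 CPM, and in C3HeB/FeJ TCDD livers at 56.6, 717 and 382 CPM. Cyp3a25 had a median of 309 CPM with TCDD and 278 CPM with vehicle (log2 difference 0.12 ± 0.08, adjusted p = 0.915), and Cyp3a59 24.3 CPM with TCDD and 23.4 CPM with vehicle (0.13 ± 0.14, adjusted p = 0.959), both by edgeR. Cyp3a13 was the member with the most strains on the negative side, 9 of 14, with a median of 83.0 CPM with TCDD and 91.4 CPM with vehicle and an average of -0.14 ± 0.07 (edgeR adjusted p = 0.832). Cyp3a16 had a median of 175.2 CPM with TCDD and 203 CPM with vehicle, and an average of -0.06 ± 0.21 (edgeR adjusted p = 1.00).

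**Figure D3:**
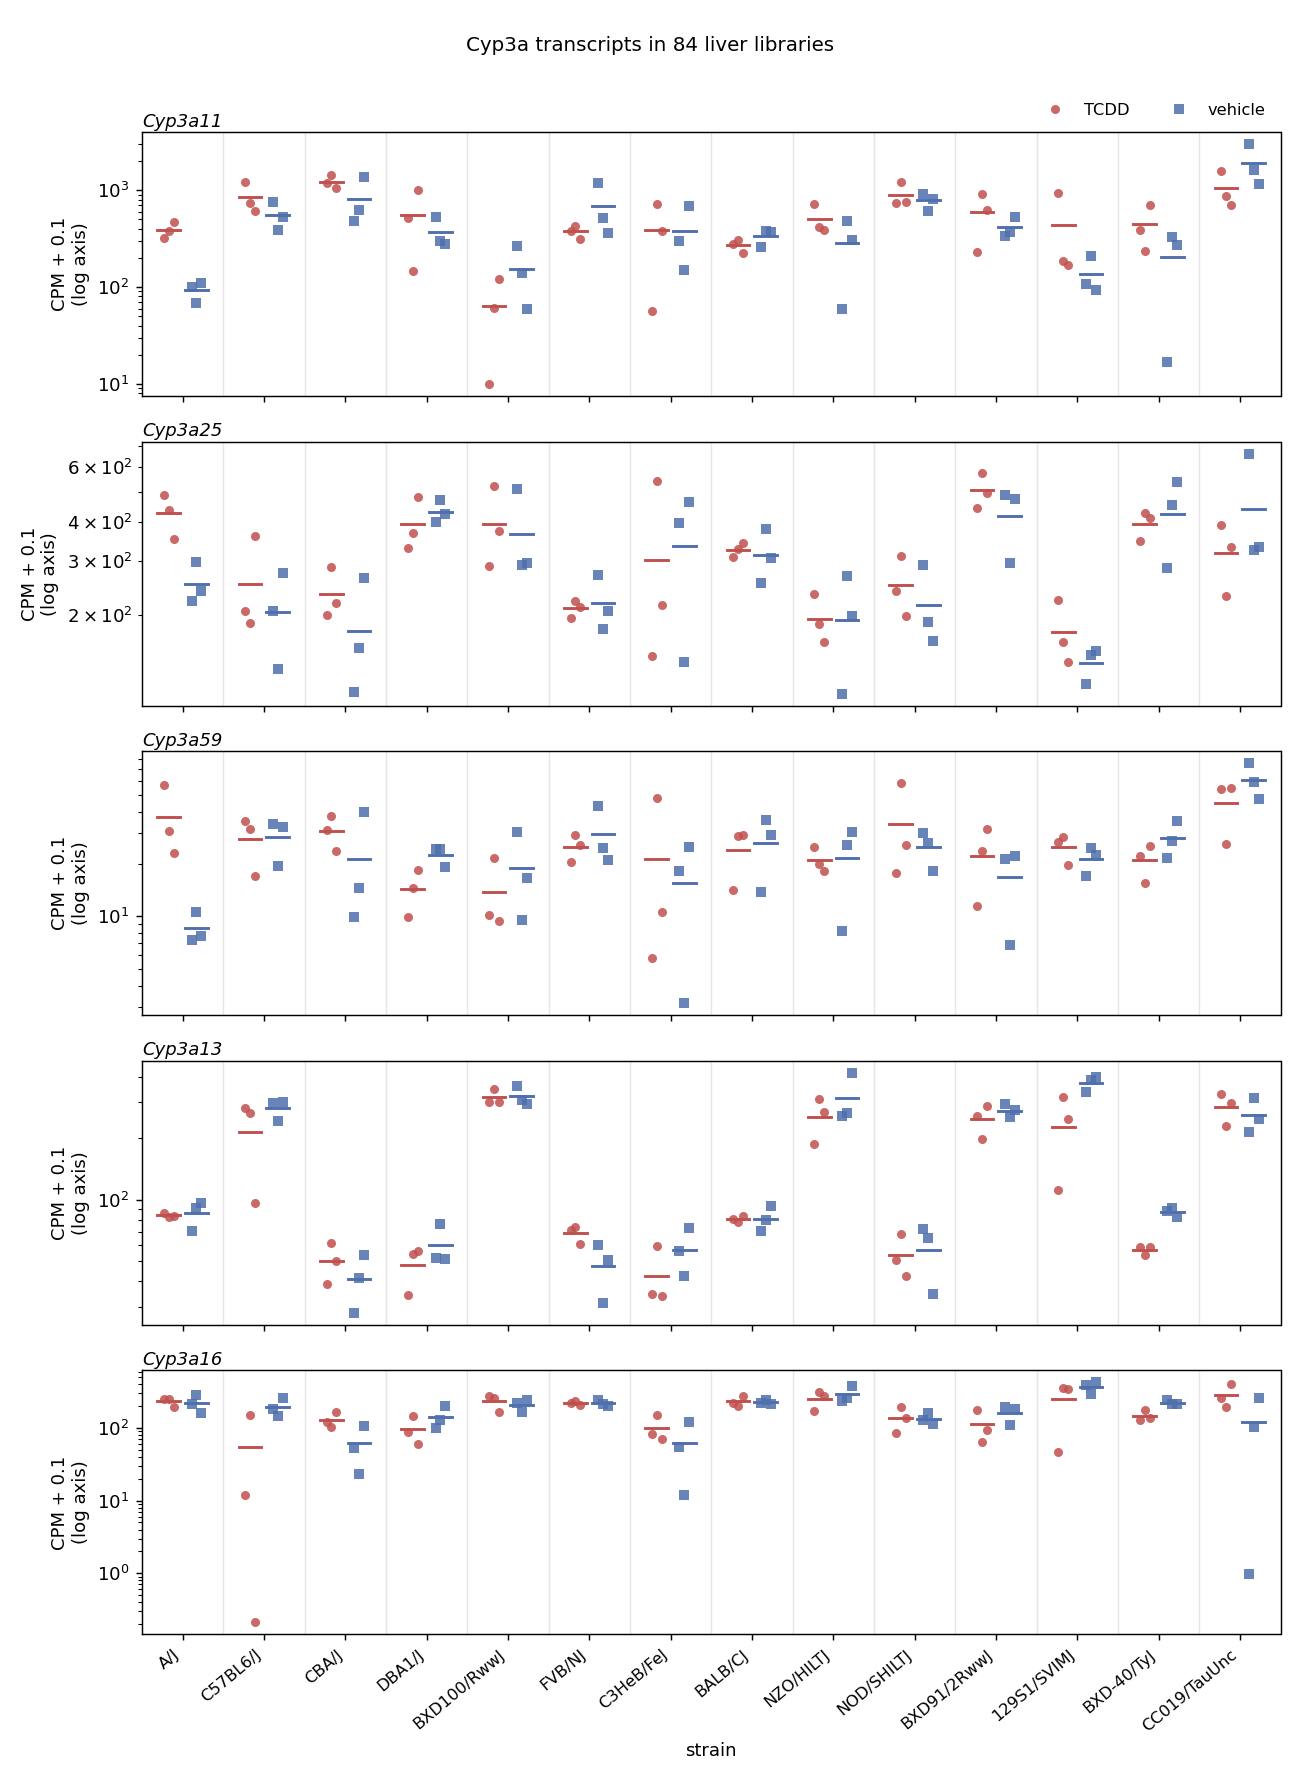
Cyp3a11, Cyp3a13, Cyp3a16, Cyp3a25 and Cyp3a59 in each liver library, in CPM on a log axis, by strain, with TCDD libraries left of vehicle libraries and a bar at each group's mean. Cyp3a13 falls into a higher and a lower set of strains, and Cyp3a16 is down at 0.11 CPM in the library C57BL6/J TCDD replicate 3 and at 0.866 CPM in CC019/TauUnc vehicle replicate 1.

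Whether the change with TCDD differed among strains was tested for each gene with 13 contrasts together. None of 10 members passed (0.0309% of all genes were called), and 1 of 10, Nr1i3, had an unadjusted p below 0.05 (edgeR adjusted p = 0.384; 8.53% of all genes). DESeq2 called none. Differences between strains described below are therefore values within strains and not a shown difference in response.

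Within strains, 1 of 140 pairs of gene and strain was called, beside 0.228% of all such pairs of genes tested and strains: Cyp3a59 in A/J, where 0.494% of genes were called. Cyp3a59 is a close relative of Cyp3a25. It was at 56.8, 30.8 and 23.2 CPM in A/J livers with TCDD, against 7.18, 10.6 and 7.64 CPM in A/J livers with vehicle. Every TCDD library lies above every vehicle library, and replicate 1 is the highest. The means were 36.9 ± 17.7 CPM with TCDD and 8.46 ± 1.83 CPM with vehicle (SD, n = 3 each), a ratio of 4.37 and a log2 difference of 2.22 ± 0.54 (SE; edgeR quasi-likelihood test, adjusted p = 0.0322). DESeq2 gave an adjusted p of 0.00646, and the authors' deposited table holds a log2 fold change of 2.22 with an adjusted p of 0.00424. The difference kept its direction without any 1 of the 6 A/J libraries (log2 1.76 to 2.46), but none of these fits called it (edgeR adjusted p = 0.0710 to 0.429). Without A/J vehicle replicate 2, the library with muscle genes, the value was 2.37 (adjusted p = 0.164).

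In A/J livers 4 other members also had each TCDD library above each vehicle library, which makes 5 of 10, beside 4.17% of all genes in that strain. Cyp3a11 was at 321, 375 and 464 CPM with TCDD, against 100, 67.7 and 109 CPM with vehicle. The groups are far apart, a ratio of 4.19 and a log2 difference of 2.14 ± 0.76, but the test over all genes did not call it (edgeR adjusted p = 0.370), and with the 6 A/J libraries fitted alone it did (adjusted p = 0.0226). Cyp2b10 was at 48.6, 20.5 and 33.6 CPM with TCDD, against 6.45, 14.6 and 15.6 CPM with vehicle (log2 difference 1.59 ± 0.70, edgeR adjusted p = 0.627). Nr1i3 was at 466, 393 and 291 CPM with TCDD, against 250, 251 and 176.5 CPM with vehicle (0.86 ± 0.30, edgeR adjusted p = 0.370). The counts of the receptor gene and of its textbook target thus both lie higher in every TCDD library of this strain, without either passing the test. Those of Nr1i3 may include reads of the overlapping gene. Cyp3a25 was at 487, 438 and 352 CPM with TCDD, against 221.7, 296 and 239.2 CPM with vehicle (0.85 ± 0.32, edgeR adjusted p = 0.425). Of the remaining members, Cyp2b9 had a log2 difference of 0.49, Nr1i2 0.20, Cyp3a16 0.18, Cyp3a13 0.06 and Cyp2b13 -0.08. The median over the 10 members in A/J was 0.67, beside -0.019 over all genes tested in A/J. With all reads of the 5 Cyp3a genes summed, so that their division among these 5 no longer matters, the log2 difference in A/J was 0.91 (edgeR adjusted p = 0.367). Cyp3a41a, Cyp3a41b and Cyp3a44 stayed outside this sum. Their transcripts are 94.8%, 94.7% and 93.5% identical to that of Cyp3a11, so division of reads with them is still possible. Beside these values, the hepatocyte markers summed to 76368 to 80031 CPM with TCDD and 66504 to 80517 CPM with vehicle in A/J, and those of endothelium to 72.2 to 169 CPM with TCDD and 157.99 to 240 CPM with vehicle. The lymphocyte markers did not overlap, at 0.620 to 2.07 CPM with TCDD and 2.253 to 4.09 CPM with vehicle, and those of stellate cells summed to 79.2 to 129.7 CPM with TCDD and 123.9 to 234.02 CPM with vehicle. Muscle genes summed to 0.706 to 1.81 CPM with TCDD and 0.428 to 1793 CPM with vehicle. Their part in the result was not tested.

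**Figure D4:**
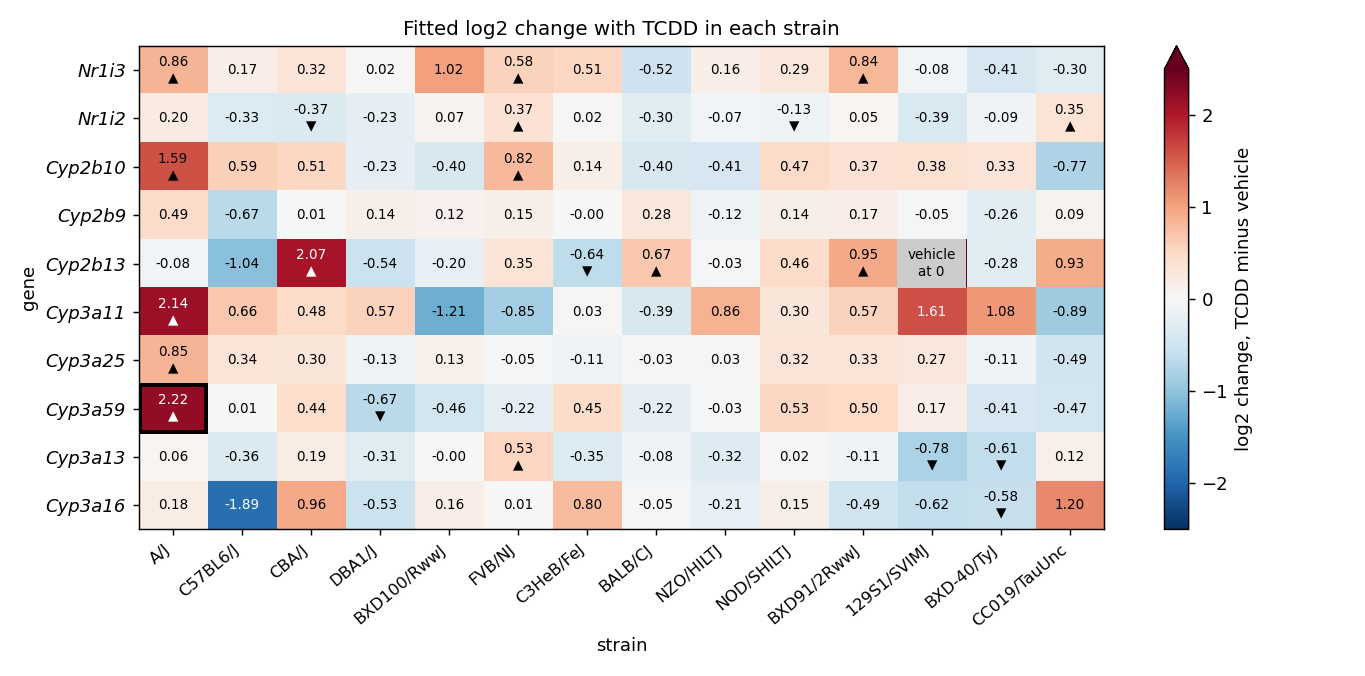
Log2 change, TCDD minus vehicle, of each member in each of 14 strains, as a heat map. A/J has 9 of 10 members above 0 and the called change of Cyp3a59 (2.22), and the cell of Cyp2b13 in 129S1/SVIMJ is grey because its vehicle libraries had 0 reads.

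Over all 140 pairs of gene and strain, each TCDD library lay above each vehicle library in 15 pairs and below in 7, beside 5.55% and 5.92% of all pairs tested. The unadjusted p was below 0.05 in 15 pairs, beside 6.18% of all, and the difference was positive in 78. After A/J, FVB/NJ held the most pairs with each TCDD library above each vehicle library, 4 of 10 members (5.29% of all genes in FVB/NJ). In FVB/NJ livers Nr1i2 was at 148, 140 and 140.8 CPM with TCDD, against 121, 101 and 109 CPM with vehicle, and Cyp2b10 at 57.1, 50.5 and 49.4 CPM with TCDD, against 34.2, 21.5 and 33 CPM with vehicle. Nr1i3 and Cyp3a13 were the other two. All 4 had an edgeR adjusted p of 1.00 in FVB/NJ, where Cyp3a11 lay on the other side, at 383, 431 and 315 CPM with TCDD and 1183, 522 and 358 CPM with vehicle.

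Nr1i3 reached larger within-strain differences than Nr1i2. In BXD100/RwwJ it was at 633, 565 and 287 CPM with TCDD, against 252, 179 and 292 CPM with vehicle (log2 difference 1.02 ± 0.31, edgeR adjusted p = 1.00). In BXD91/2RwwJ it was at 356, 381 and 375 CPM with TCDD, against 220, 207 and 209 CPM with vehicle (0.84 ± 0.30, edgeR adjusted p = 1.00). The groups overlap in BXD100/RwwJ through 1 TCDD library and do not overlap in BXD91/2RwwJ. In BALB/CJ the values lay the other way, at 184, 299 and 331 CPM with TCDD and 330, 402 and 364 CPM with vehicle (-0.52 ± 0.30, edgeR adjusted p = 1.00). In C3HeB/FeJ the 956 CPM of replicate 2 stood beside 228 and 275 CPM in the other TCDD libraries, against 405, 215 and 402 CPM with vehicle.

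Large differences of single P450 genes in other strains did not pass the test or rested on 1 library. In CBA/J, Cyp2b13 was at 39.3, 74.0 and 32.3 CPM with TCDD, against 10.6, 1.89 and 18.4 CPM with vehicle (log2 2.07 ± 0.71, edgeR adjusted p = 0.385). In BXD-40/TyJ, Cyp3a13 was at 58.6, 53.7 and 58.6 CPM with TCDD, against 88.2, 91.3 and 82.7 CPM with vehicle (-0.61, edgeR adjusted p = 0.327). These 2 pairs of groups do not overlap. In 129S1/SVIMJ, Cyp3a11 was at 946, 185 and 170 CPM with TCDD, against 107, 208 and 93.0 CPM with vehicle. Only replicate 1, the library low in A1bg, is high, and the log2 difference was 1.61 with it and 0.29 without it. In C57BL6/J, Cyp3a16 was at 11.7, 150.9 and 0.11 CPM with TCDD, against 182, 148 and 257.5 CPM with vehicle. The fitted log2 difference was -1.89, and -1.34 without the library that went against its label of sex. Without C57BL6/J TCDD replicate 2 instead, which leaves that library with 1 other, edgeR called Cyp3a16 (-4.85, adjusted p = 0.00131) and Cyp2b9 (-1.24, adjusted p = 0.0391) in C57BL6/J.

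In the authors' deposited table, all but 2 of 140 log2 fold changes have the sign found here, 18 have a p below 0.05 and 1 has an adjusted p below 0.05. The largest difference between a log2 value of that table and the fit here was 0.611.

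Strain differences without TCDD were much larger. Among the 14 vehicle groups 8 of 10 members differed by edgeR's quasi-likelihood test, beside 46.8% of all genes tested. The adjusted p was 1.25e-23 for Cyp3a13, 2.29e-19 for Cyp2b9, 6.24e-09 for Cyp2b13, 1.08e-05 for Cyp3a25, 2.86e-05 for Cyp3a11, 0.000561 for Cyp2b10, 0.00513 for Cyp3a59 and 0.0282 for Nr1i3. Nr1i2 (0.146) and Cyp3a16 (0.185) did not pass. The file names show that reads were aligned to references that differ between strains, so strain and reference cannot be told apart in these levels. With each vehicle strain set against the other 13, 34 of 140 pairs were called, 22 higher and 12 lower, beside 8.94% of all pairs tested.

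The 3 Cyp2b genes of chromosome 7 were low in 129S1/SVIMJ livers, where 7.91% of all genes were called against the other 13 strains. Cyp2b9 was at 0.241, 0.356 and 0.721 CPM with TCDD and at 0.188, 0.478 and 0.640 CPM with vehicle in 129S1/SVIMJ. Its vehicle mean was 0.435 CPM in 129S1/SVIMJ, against 249 CPM over the other 13 strains, whose means ran from 120 to 385 CPM (log2 difference -9.07 ± 0.49, edgeR adjusted p = 9.58e-24). Every 129S1/SVIMJ library lies below 1 CPM for this gene, also without TCDD. Cyp2b13 had 0 reads in all 3 vehicle libraries of 129S1/SVIMJ and 4, 4 and 14 reads in its TCDD libraries. With 3 counts per library as the floor of what a count of 0 allows, or 0.186 CPM, its vehicle level was at least 336-fold lower than the mean of the other 13 strains (62.7 CPM) and at least 52.2-fold lower than the lowest of them (9.73 CPM in CC019/TauUnc). Cyp2b10 was at 1.93, 0.356 and 3.24 CPM with TCDD and 2.13, 1.67 and 0.128 CPM with vehicle in 129S1/SVIMJ. Its vehicle mean was 1.31 CPM in 129S1/SVIMJ, against 38.2 CPM over the other 13 (log2 difference -4.70 ± 0.78, edgeR adjusted p = 9.52e-06). These calls were kept without each 129S1/SVIMJ vehicle library in turn. Summed over the 3 genes, the log2 difference was -7.55 (edgeR adjusted p = 4.72e-19).

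Most genes next to the Cyp2b block were not low in 129S1/SVIMJ. Of the 12 coding genes nearest to it, 6 on each side, 8 could be tested, and 1, the receptor kinase gene Axl, was called lower in 129S1/SVIMJ vehicle livers (log2 -0.94, edgeR adjusted p = 0.0339). Cyp2a4, the steroid hydroxylase gene on the side of Cyp2b9, was at 2403 CPM in 129S1/SVIMJ vehicle livers, within the 584 to 3075 CPM of the other strain means. Reads aligned to more than 1 place made up 8.37% to 9.38% of the 129S1/SVIMJ libraries, within the 7.80% to 10.2% of the libraries outside the BXD lines. Whether alignment plays a part in the Cyp2b values was not tested.

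Outside 129S1/SVIMJ the Cyp2b genes varied less. Without that strain, which leaves fewer pairs to test, 22 of the pairs against the rest were called in place of 34. Cyp2b9 was then called higher in 1 strain and lower in 1, and Cyp2b13 higher in 1 and lower in 2, in place of 6 higher and 1 lower each. With 129S1/SVIMJ kept and C57BL6/J TCDD replicate 3, the library that went against its label of sex, left out, the pairs called numbered 44, and Cyp2b9 was called higher in 11 strains and lower in 1. Without the 3 libraries low in A1bg there were 49 such pairs, with Cyp2b9 higher in 12 and lower in 2, while Cyp2b13 was higher in 7 and lower in 1 in both cases. Dispersions were estimated again in these fits, and the share of all genes called was not computed for them. The shifts in these counts can therefore not be read as particular to the members. NZO/HILTJ had the highest vehicle means of both, 385 ± 12.0 CPM of Cyp2b9 (SD, n = 3), next to 309 ± 52.7 CPM in CBA/J, and 137.4 ± 37.4 CPM of Cyp2b13, next to 103 ± 48.2 CPM in DBA1/J. A/J was the lowest of the 13 for Cyp2b9, at 120 ± 12.4 CPM, with its libraries below those of the next strain, BXD91/2RwwJ (210 ± 20.5 CPM). Cyp2b13 was low in CBA/J (10.3 ± 8.28 CPM) and CC019/TauUnc (9.73 ± 7.14 CPM), whose libraries lay below those of A/J (28.2 ± 5.21 CPM). Cyp2b10 ran from 56.5 ± 12.4 CPM in BXD91/2RwwJ to 12.2 ± 5.04 CPM in A/J, with overlapping libraries at each step of the order, and did not differ among the 13 strains by the test (edgeR adjusted p = 0.304).

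Cyp3a13, a Cyp3a gene that lies apart from the Cyp3a cluster on chromosome 5, had the smallest adjusted p of the 10 genes among strains. Its vehicle means were 373 CPM in 129S1/SVIMJ, 321 in BXD100/RwwJ, 313 in NZO/HILTJ, 280 in C57BL6/J, 273 in BXD91/2RwwJ and 259 in CC019/TauUnc. After a gap came 87.4 CPM in BXD-40/TyJ, 86.0 in A/J, 81.0 in BALB/CJ, 59.8 in DBA1/J, 57 in C3HeB/FeJ and in NOD/SHILTJ, 47.4 in FVB/NJ and 40.9 in CBA/J. The lowest vehicle library of the first 6 strains was at 215.6 CPM and the highest of the other 8 at 96.1 CPM. Against the other 13, edgeR called all of the first 6 strains higher and 6 of the other 8 lower, all but BXD-40/TyJ and A/J. The 3 BXD lines, which descend from the same pair of parents, fell on both sides of the gap. In TCDD libraries the highest value of the lower 8 strains was 86.6 CPM. Among the other 6 strains the lowest were 96.4 and 111 CPM, in the C57BL6/J library that went against its label of sex and the 129S1/SVIMJ library low in A1bg, followed by 186 CPM. Within the 6 and within the 8 strains, neighbours in the order had overlapping libraries.

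Cyp3a11 and Cyp3a59, of the Cyp3a cluster on chromosome 5, stood highest in CC019/TauUnc, where 12.3% of all genes were called against the rest. In vehicle livers of CC019/TauUnc, Cyp3a11 was at 2991, 1608 and 1168 CPM, a mean of 1922 CPM, against 401 CPM over the other 13 strains (log2 difference 2.58 ± 0.41, edgeR adjusted p = 3.56e-06). Cyp3a59 was at 75.8, 59.4 and 47.4 CPM there, a mean of 60.8 CPM, against 21.8 CPM over the other 13 (1.59 ± 0.32, edgeR adjusted p = 0.000194). For both genes replicate 1, the library low in A1bg, is the highest of the 3, and without it both were still called (2.11, edgeR adjusted p = 0.00375 for Cyp3a11 and 1.40, adjusted p = 0.0143 for Cyp3a59). Cyp3a25 averaged 439 CPM in CC019/TauUnc, against 283 CPM (0.76, edgeR adjusted p = 0.00984), and without that library the difference was 0.34 (adjusted p = 0.539). Its libraries overlapped those of DBA1/J, the next strain (431 CPM). Cyp3a16 lay on the other side, at a mean of 122.9 CPM in CC019/TauUnc, against 193.9 CPM over the other 13 (-0.46, edgeR adjusted p = 0.726; 0.12 without replicate 1). Summed over the 5 Cyp3a genes, CC019/TauUnc was higher by 1.46 (edgeR adjusted p = 8.85e-08). CBA/J was called higher for Cyp3a11 alone of the cluster, at 818 CPM, against 486 CPM over the other 13 (1.38, edgeR adjusted p = 0.0286; 20% of all genes were called in CBA/J). Without CBA/J vehicle replicate 3, at 1359 CPM, the value was 0.81 (adjusted p = 0.363).

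A/J vehicle livers, in which TCDD gave the only called change of a member, were at the other end of the order, and 10.4% of all genes were called there. Cyp3a11 averaged 92.3 CPM in A/J, against 542 CPM over the other 13 strains (log2 difference -2.16 ± 0.65, edgeR adjusted p = 0.0217), and Cyp3a59 8.46 CPM, against 25.8 CPM (-1.52 ± 0.44, adjusted p = 0.0158). Neither was called without any 1 of the 3 A/J vehicle libraries (adjusted p = 0.0850 to 0.157 for Cyp3a11 and 0.0581 to 0.105 for Cyp3a59). With TCDD, the A/J means of 387 CPM of Cyp3a11 and 36.9 CPM of Cyp3a59 lay within the span of the vehicle means of the other strains, 136 to 1922 CPM and 15.4 to 60.8 CPM. The vehicle libraries enter both the change with TCDD and the comparison among strains, so these are not independent results. In 129S1/SVIMJ, Cyp3a25 was called lower (140.6 CPM, against 306 CPM; -1.01, edgeR adjusted p = 0.00496), and the call was lost without vehicle replicate 1 (-0.91, adjusted p = 0.0778).

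The receptors and Cyp3a16 varied least beyond their replicate spread. Nr1i2 ran from 148 ± 28.6 CPM in NZO/HILTJ vehicle livers to 102 ± 9.97 CPM in BXD91/2RwwJ, and Nr1i3 from 370 ± 72.3 CPM in 129S1/SVIMJ to 203 ± 24.2 CPM in DBA1/J (SD, n = 3 each). Cyp3a16 ran from 370 ± 65.9 CPM in 129S1/SVIMJ to 61.5 ± 43.2 CPM in CBA/J. For these 3 genes, as for Cyp3a11 and Cyp3a25, all 13 pairs of neighbours in the order of strains had overlapping libraries, and no strain was called against the rest for Nr1i2, Nr1i3 or Cyp3a16. 129S1/SVIMJ thus combined the highest mean of Nr1i3 with the lowest of Cyp2b10. Without the 3 libraries low in A1bg, all 10 members passed the test among vehicle strains, Cyp3a16 with an edgeR adjusted p of 0.000570 and Nr1i2 with 0.0382. These 3 libraries were chosen after seeing the data. They hold the lowest TCDD value of Cyp3a16 (0.11 CPM, C57BL6/J TCDD replicate 3) and its lowest vehicle value (0.866 CPM, CC019/TauUnc vehicle replicate 1). Leaving them out narrows the spread of Cyp3a16 through that choice, so its pass is no independent support. Without C57BL6/J TCDD replicate 3 alone Nr1i2 passed as well (edgeR adjusted p = 0.0361). The share of all genes that passed was not computed in either fit.

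The 8 relations between receptors, targets and the TCDD response were computed with two-sided permutation tests. Only 1 of the 8 passed: over the deviations of 84 libraries from their group means, Cyp2b10 and Cyp3a11 varied together (Pearson r = 0.376, p = 0.00106, adjusted p = 0.00848; Spearman rho = 0.477, p = 0.00043, adjusted p = 0.00344; permuted within groups). In 61 of 84 libraries both genes lay on the same side of their group mean. The r was 0.415 without the 2 libraries farthest out in Cyp2b10 and 0.440 without C57BL6/J TCDD replicate 3. Deviations share a library's depth and its mix of cells, whose part was not tested. Of receptor and target, only Nr1i3 with Cyp2b10 and Nr1i2 with Cyp3a11 were tested, and neither passed. Over the same deviations r was -0.226 between Nr1i3 and Cyp2b10 (permutation adjusted p = 0.351) and 0.0662 between Nr1i2 and Cyp3a11 (adjusted p = 0.759). Other pairs of a receptor and a P450 gene were not tested. Their r over these deviations ran from -0.148 (Nr1i3 with Cyp2b9) to 0.553 (Nr1i2 with Cyp2b13), and Nr1i2 with Cyp2b10 had 0.511. In C57BL6/J TCDD replicate 3, Nr1i2 lay at -0.776 and Cyp2b10 at -4.43 from the group mean, and these r were not computed without it. Over the 14 vehicle strain means r was -0.256 between Nr1i3 and Cyp2b10 (permutation adjusted p = 0.725) and -0.0644 between Nr1i2 and Cyp3a11 (adjusted p = 0.875). Without 129S1/SVIMJ both turned positive, 0.303 and 0.0234. Over the 14 changes with TCDD, r was 0.432 between Nr1i3 and Cyp2b10 (permutation adjusted p = 0.325). For the 9 strains of the larger cluster of Cyp1a1 changes, r with the change of Cyp2b10 was 0.561 (exact permutation test, adjusted p = 0.325) and with that of Cyp3a11 0.06 (exact permutation test, adjusted p = 0.875).

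**Figure D5:**
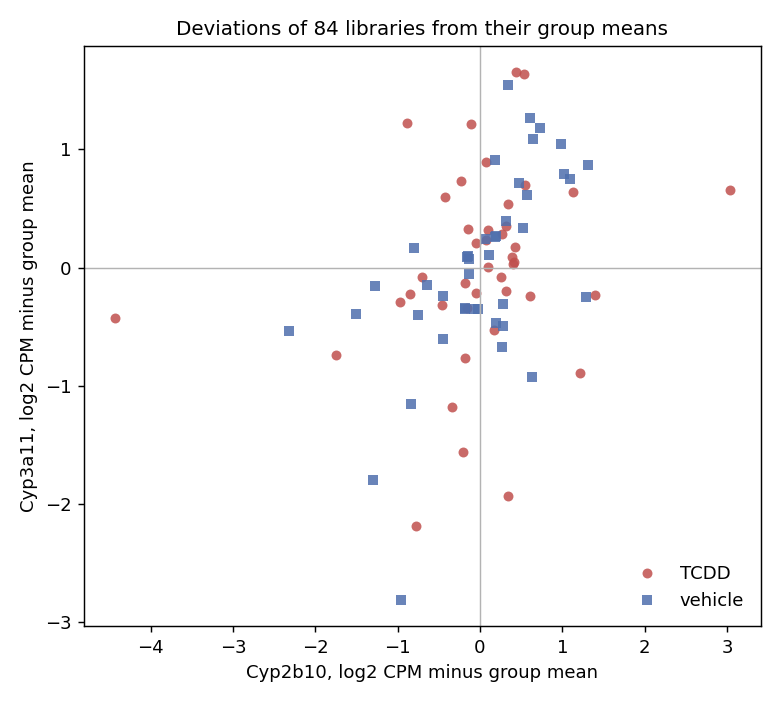
Deviation of log2 CPM from the group mean, Cyp2b10 on the horizontal axis and Cyp3a11 on the vertical, for 42 TCDD and 42 vehicle libraries. In 61 of 84 libraries both deviations have the same sign (r = 0.376).

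As a description with no test, the members most alike over these 84 deviations were Cyp3a25 with Cyp3a59 (r = 0.759), Cyp2b9 with Cyp2b13 (0.756), Cyp2b9 with Cyp3a16 (0.730), Cyp2b10 with Cyp2b13 (0.702) and Cyp3a11 with Cyp3a25 (0.656). The first and second of these pairs have the most similar promoters and share transcript windows. Over the 28 group means, r was 0.0093 for Cyp3a25 with Cyp3a59 and 0.899 for Cyp2b9 with Cyp2b13 (0.454 without 129S1/SVIMJ). The first pair thus varied together within groups and not across them. Among 11554 genes, the one whose mean log2 level over the 28 groups was most like that of Nr1i3 was Tomm40l (r = 0.966), which encodes a mitochondrial import protein and lies next to it on chromosome 1. Tomm40l overlaps 3304 of 4414 exon bases of Nr1i3 (74.9%) on the opposite strand, and the labels name a kit without stating that it keeps strand, so reads of these genes cannot be told apart and the levels of Nr1i3 are uncertain to that extent. After it came Ephx2, a soluble epoxide hydrolase (0.726), and Mks1 (0.705).

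For the other members the likeness over 28 group means was as follows. Nr1i2 was most like Mafg, a small Maf transcription factor (r = 0.779), Dennd4b (0.739) and Prkag2 (0.729). The genes most like Cyp2b9 were Ncoa4 (0.929), Cyp2b10 (0.914) and Fam173b (0.907), and without 129S1/SVIMJ these values were -0.0795, 0.260 and 0.576, so the likeness to Ncoa4, a ferritin receptor gene, rested on that strain. Cyp2b10 and Cyp2b13 were each most like Cyp2b9 (0.914 and 0.899), and Cyp2b13 with Cyp2b9 was 0.454 without 129S1/SVIMJ. Cyp3a11 was most like Ces2a, a carboxylesterase gene and itself a known PXR target (0.757), Dus1l (0.717) and Ldah (0.696). Cyp3a13 was most like Zscan21 (0.844), which lies on chromosome 5 with 6 coding genes between them, then Ssbp1 (0.810) and Zkscan3 (0.784). Cyp3a16 was most like Cyp3a41b (0.836), Slc22a26 (0.824) and Cyp3a44 (0.791), Cyp3a25 most like Cyp4a32 (0.705), Acad8 (0.680) and Arhgef10l (0.673), and Cyp3a59 most like Poli (0.667), Cyp3a11 (0.662) and Ldah (0.642).

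Other genes of the pathway were read from lists chosen with results of these data known. Of 6 further Cyp2b and Cyp3a genes 3 could be tested and none was called, with average log2 differences of -0.07 for Cyp3a44, 0.0046 for Cyp3a41a and 0.0016 for Cyp3a41b. Cyp2b19, Cyp2b23 and Cyp3a57 reached at most 2, 7 and 9 reads in any library. Of 23 partners and regulators of CAR and PXR none was called and 4 were positive, with a median of -0.05 (-0.0033 over all genes tested). The smallest p was that of Egfr, the receptor whose signalling holds CAR in the cytoplasm (-0.22 ± 0.07, edgeR adjusted p = 0.304), followed by Ppp2ca, a phosphatase subunit (-0.05). Of 37 tested genes among the other CAR and PXR targets, 7 were called higher with TCDD and none lower, where 0.179% of all genes were called, and the median was 0.19, beside -0.0033 over all genes. They were Ces2c (0.70 ± 0.12, edgeR adjusted p = 0.000194), Sult5a1 (0.58 ± 0.10, adjusted p = 0.000500), Ugt2b35 (0.28 ± 0.06, adjusted p = 0.00682), Gstm1, Abcc3, Cyp2c37 and Gstm4, which encode enzymes of hydrolysis, conjugation and oxidation and, in Abcc3, an export pump. In A/J 32 of the 37 were positive with a median of 0.48, beside -0.019 over all genes, and 1, Sult5a1, was called (1.71, edgeR adjusted p = 0.0105; 0.494% of all genes in A/J). Several of these genes are also known targets of other receptors, the aryl hydrocarbon receptor included.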

How the data were processed

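RNA was measured by sequencing in 84 livers of 14 strains, 3 with TCDD and 3 with vehicle each, grouped by the labels. The values used are raw counts per gene, which the authors deposited per library and made, per the submitters' processing notes, with FastQC 0.11.5, Trimmomatic 0.38, Bowtie2 2.3.2.25 and HTSeq 0.6.1 on mm9. The authors also deposited a table of log2 fold changes with p-values per strain, for which the notes name DESeq2, given as 3.8. It was used to pair gene IDs with symbols and is quoted where named. File names show strain-specific alignment references. Reads outside genes were 46.7% to 52.6% and ambiguous reads 0.442% to 1.41% of each library, and both stayed out of library sizes.

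Counts were fitted with edgeR 4.0.16 in R 4.3.3 (TMM scaling, filterByExpr, robust quasi-likelihood fit of 28 groups, common dispersion 0.0651), and p-values were adjusted by Benjamini-Hochberg over 16195 genes within each contrast with a threshold of 0.05. The filter kept all 10 members. Contrasts were the mean of 14 within-strain changes, each change, their differences, the 14 vehicle groups together, and each vehicle group against the mean of the log2 levels of the other 13, which a strain near 0 moves for all others. CPM use total gene counts. Likeness is Pearson r of group means of log2 CPM (prior count 1) over genes with a mean of at least 1 CPM, predicted genes and pseudogenes left out, and the 3 highest per member are named. Relations used 100000 permutations or, for 9 strains, all of them. Alternatives were DESeq2 1.42.0, other size factors, no filter, no robust estimation, strains fitted alone, counts summed by family, and sets of libraries or strains left out. Fits without 1 library kept the genes, scaling and dispersions of all 84 and, within strains and against the other 13, repeated the tests of that library's strain. Leaving out 129S1/SVIMJ and leaving out the 3 libraries low in A1bg were chosen after seeing the data.

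Replicate libraries differed by more than sampling noise in all 84 pairs within groups (chi-square per degree of freedom 12.8 to 206). The floor for a count of 0 is 3 counts per library and covers counting error only. The members and gene lists were chosen with earlier results of these data known. Promoters are RefSeq entries on GRCm38.p6, searched on both strands, and transcripts are GENCODE M21. Neither replaces the mm9 annotation of the counts. The same functions were also run on counts simulated from the levels of these data and the dispersions of their fit.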

Additional observations from a re-analysis of the deposited data

How the results depend on the processing

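No paired analysis was possible because the replicate numbers follow only accession order and pair nothing. The average change of the members (0 called) and the strain by treatment test (0 called) gave 0 calls under every alternative, including 0 to 0 with each of 84 libraries left out. The 1 call within strains, Cyp3a59 in A/J, became 0 with no filter on low counts (adjusted p = 0.0617), without the 3 libraries that stand apart by sex, muscle or adrenal genes (0.157) and without CC019/TauUnc and the BXD lines (0.0522), and 0 to 3 with 1 library left out. With A/J fitted alone its adjusted p was 0.168. Among vehicle strains 7 to 9 members passed with 1 library left out. The 34 pairs of strain against the other 13 became 32 to 35 with 1 library left out, when dispersions were kept and the tests repeated in that library's strain alone. With everything estimated again they were 44 without C57BL6/J TCDD replicate 3, 41 without the 3 libraries that stand apart, 49 without the 3 low in A1bg and 22 without 129S1/SVIMJ, the last 2 chosen after seeing the data. For these fits the share of all genes called was not computed. Without 129S1/SVIMJ there are also fewer pairs. Without 129S1/SVIMJ, Cyp2b9 in C57BL6/J and NOD/SHILTJ turned from called higher to -0.0063 and -0.032, and the relations over vehicle strain means turned to 0.303 (Nr1i3 with Cyp2b10) and 0.0234 (Nr1i2 with Cyp3a11). The average of Cyp2b9 turned negative with 1 library left out (-0.0069 without C57BL6/J TCDD replicate 2, -0.0025 without 129S1/SVIMJ TCDD replicate 3; range -0.0069 to 0.071), and that of Cyp3a16 positive (0.0019 without C3HeB/FeJ vehicle replicate 3, 0.0226 without CC019/TauUnc vehicle replicate 3; range -0.28 to 0.0226). The test among vehicle strains lost Cyp3a59 (adjusted p = 0.219) and Nr1i3 (0.0636) without the BXD lines and CC019/TauUnc. The cause of these shifts was not tested. DESeq2 called 36 pairs of vehicle strain against the other 13 and was not run for the joint test among vehicle strains. With 3 libraries a group, the standard error of a within-strain log2 change was 0.70 for Cyp2b10 and 0.76 for Cyp3a11 in A/J, so a change of that size could not be told from 0.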
